A study of Homo sapiens with 4 samples.

Results

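The nuclear-encoded subunits of oxidative phosphorylation were followed in 4 total RNA libraries of A673, an established human Ewing sarcoma cell line. Members were the gene symbols of the deposited count files that begin with the subunit prefixes NDUFA, NDUFB, NDUFC, NDUFS, NDUFV, UQCR, COX4 to COX8 or ATP5, plus SDHA, SDHB, SDHC, SDHD, CYC1 and CYCS. The assembly factors NDUFAF1 to NDUFAF4, 2 symbols with a hyphen and the pseudogene ATP5EP2 were left out. This gave 90 members among 23228 listed genes: 37 of complex I, 4 of complex II, 10 of complex III, 19 of complex IV, 16 of complex V and cytochrome c (CYCS). NDUFA4 and its paralog NDUFA4L2 were placed in complex IV, where NDUFA4 is now known to sit. The other 3 members match a prefix but encode no subunit: COX4NB, now named EMC8 and part of an endoplasmic reticulum membrane complex, and ATP5S and ATP5SL, which are related to distal membrane arm assembly factors.

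The cells were harvested 48 h after transfection with siRNA, and each group is 1 library. They received siRNA against SMPD1, which encodes acid sphingomyelinase (siSMPD1), siRNA against GPR64, an adhesion G protein-coupled receptor (siGPR64), or scrambled siRNA in 2 control libraries. The titles place one control with the GPR64 library (control_GPR64), and the other, which shares its 48 h title with siSMPD1, is called control_SMPD1 here. No genetic change other than those of the parental line is given, all cells received the transfection reagent, and the siRNA sequences were not stated. The labels name the tissue as muscle. Of 12 skeletal muscle markers, PAX3 alone reached 1 CPM (counts scaled to a common library size), and MYOD1, MYOG and MYF5 were at 0 counts in all 4 libraries. Of 12 Ewing sarcoma markers, 10 or 11 reached 1 CPM in each library, and their summed level ranged from 2320 to 2604 CPM. JAK1 gave the largest part of that sum (868 to 1101 CPM), and single markers differed more between libraries. In control_SMPD1 and control_GPR64, PAX7 stood at 197 and 24.0 CPM and NR0B1 at 73.7 and 143 CPM. CD99, a defining Ewing marker, was listed at 0 throughout. It lies in the pseudoautosomal region that the X and Y chromosomes share, and 13 of 14 genes of that region were at 0 in every library.

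Gene count totals were 19614913, 18849264, 2882854 and 2534861 for control_SMPD1, siSMPD1, control_GPR64 and siGPR64, so the GPR64 pair was several times shallower. A gene with 0 counts could thus have stood at up to 0.16 CPM in either SMPD1-pair library, and at up to 1.03 CPM in control_GPR64 or 1.18 CPM in siGPR64 (3 counts). Where 4 values are listed, they follow the order control_SMPD1, siSMPD1, control_GPR64, siGPR64. SMPD1 was 4.52-fold lower in siSMPD1 than in control_SMPD1 and GPR64 was 2.16-fold lower in siGPR64 than in control_GPR64. Both targets also differed between the controls: control_GPR64 was 7.85-fold lower than control_SMPD1 in SMPD1 and 3.57-fold lower in GPR64. SMPD1 stood at 414, 91.7, 52.8 and 232 CPM, so it was lower in control_GPR64 than in siSMPD1, and 4.38-fold higher in siGPR64 than in its control. Since each group is 1 library, nothing below was checked against replicates, and differences are described by size. Intervals in parentheses are exact 95% intervals for counting error alone, and they hold no spread between cultures.

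Oxidative phosphorylation passes electrons from NADH through complex I, or from succinate through complex II, to coenzyme Q, then through complex III and cytochrome c to complex IV, where oxygen is reduced. Complexes I, III and IV pump protons across the inner mitochondrial membrane, and complex V, the ATP synthase, uses that gradient to make ATP. Apart from complex II, which is wholly nuclear-encoded, each complex joins nuclear-encoded subunits with a few encoded by mitochondrial DNA, and no mitochondrially encoded subunit is among the listed genes.

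Some members have near-identical copies in the genome, and the counts hold only reads that align to a single place, so their sequences bear on what their counts can show. UQCRH encodes the hinge subunit of complex III, and UQCRHL is an intronless copy of it elsewhere on chromosome 1. Their coding sequences (GENCODE v29, 276 bases) differ at 4 bases, shown in capitals, and 53.7% of all 50-base windows are the same in both.
UQCRH: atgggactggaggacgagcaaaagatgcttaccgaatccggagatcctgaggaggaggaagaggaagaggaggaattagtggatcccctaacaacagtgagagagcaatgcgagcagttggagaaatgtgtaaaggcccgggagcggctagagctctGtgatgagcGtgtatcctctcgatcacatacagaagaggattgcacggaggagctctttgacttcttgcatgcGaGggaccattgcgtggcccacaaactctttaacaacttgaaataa
UQCRHL: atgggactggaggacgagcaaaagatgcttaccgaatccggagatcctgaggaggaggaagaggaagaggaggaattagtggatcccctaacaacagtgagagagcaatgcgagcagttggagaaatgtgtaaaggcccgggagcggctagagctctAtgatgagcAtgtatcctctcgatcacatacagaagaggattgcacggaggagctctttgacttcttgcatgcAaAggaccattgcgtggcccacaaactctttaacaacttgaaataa
ATP5E encodes the epsilon subunit of complex V, and ATP5EP2 is its processed pseudogene. Over the 156 coding bases they differ at 6 bases, in capitals.
ATP5E: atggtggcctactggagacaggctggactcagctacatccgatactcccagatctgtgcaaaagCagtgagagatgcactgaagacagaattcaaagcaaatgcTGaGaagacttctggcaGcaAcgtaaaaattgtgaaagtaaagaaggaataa
ATP5EP2: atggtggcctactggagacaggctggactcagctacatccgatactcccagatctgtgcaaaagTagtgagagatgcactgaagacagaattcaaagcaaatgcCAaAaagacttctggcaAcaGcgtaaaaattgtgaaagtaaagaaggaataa
ATP5E was listed with 58, 56, 2 and 5 counts, and ATP5EP2 with 795, 802, 165 and 141. The pseudogene thus carried more counts than its parent gene in every library. ATP5E also overlaps TUBB1 on the opposite strand (GENCODE v29) and shares its locus with the readthrough gene SLMO2-ATP5E, listed at 0 in every library, so its own level is uncertain. UQCRH and UQCRHL were listed at similar levels, at 95.3 and 80.8 CPM in control_SMPD1 and at 175 and 186 CPM in control_GPR64. Reads of this pair may be split between the entries, and each value is uncertain. In the same annotation 46 of the 90 members have at least 1 named pseudogene, led by CYCS with 40 and COX6C with 17, and 40 members overlap an exon of another gene.

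Of the 90 members, 83 had a mean of at least 1 CPM over the libraries of each knockdown comparison. The remaining 7 were the isoforms COX4I2, COX6A2, COX6B2, COX7A1, COX7B2 and COX8C of complex IV and ATP5L2 of complex V. The complex IV isoforms among them are known from heart and skeletal muscle, testis or hypoxic tissue. COX4I2, COX6A2, COX7A1 and COX7B2 had 0 counts in all 4 libraries, and no library had more than 4 counts for COX6B2, COX8C or ATP5L2. The ubiquitous partners were measured in every library. COX4I1, the common form of subunit 4, stood at 240, 221, 357 and 355 CPM. NDUFA4L2, a paralog of NDUFA4 induced by hypoxia, had 20, 19, 7 and 2 counts. It overlaps SHMT2 on the opposite strand, and with no stated strand setting reads of the overlap cannot be told apart. Apart from ATP5E and NDUFA4L2, measured members had at least 207 counts in each library of the SMPD1 pair and at least 39 in each library of the GPR64 pair.

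Together the members held 1.06% of all gene counts in control_SMPD1 (1.06 to 1.07), 1.03% in siSMPD1 (1.02 to 1.03), 1.35% in control_GPR64 (1.34 to 1.37) and 1.27% in siGPR64 (1.26 to 1.28). Complex I held 0.324%, 0.322%, 0.423% and 0.384%, and complex V 0.361%, 0.344%, 0.433% and 0.39%. Every complex took a larger share in both libraries of the GPR64 pair than in either library of the SMPD1 pair. Within each pair the knockdown library had the smaller share for complexes I, III and V, although the counting intervals of complex I in the SMPD1 pair and of complex III in the GPR64 pair overlapped. Complex II, the succinate dehydrogenase that also belongs to the citric acid cycle, held 0.0434%, 0.0398%, 0.0512% and 0.057%, so it was smaller in siSMPD1 and larger in siGPR64 than in the paired control. A smaller share could mean less of these RNAs in every cell or in some cells only, which bulk libraries cannot tell apart.

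**Figure D1:**
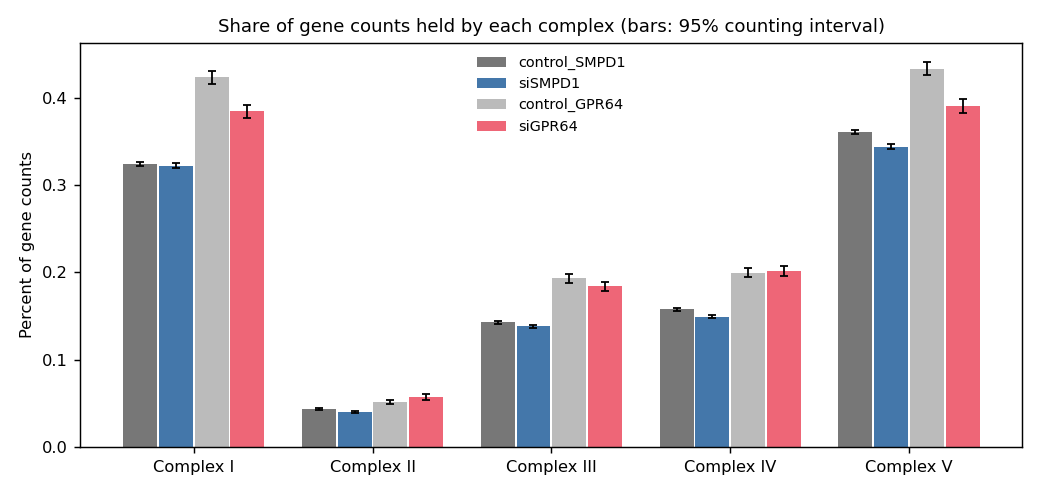
Percent of all gene counts held by the members of each complex, 1 bar per library, with exact 95% counting intervals. For all 5 complexes the bars of control_GPR64 and siGPR64 stand above those of control_SMPD1 and siSMPD1, for example 0.423% and 0.384% against 0.324% and 0.322% for complex I.

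The first comparison asked how the subunit genes stood after SMPD1 silencing. A gene was counted as shifted where scaled counts differed 2-fold or more and the counting interval left out equality. No member was shifted between siSMPD1 and control_SMPD1, beside 3.6% of 12749 measured genes (2.49% higher and 1.11% lower). At 1.5-fold 1 member, NDUFA4, was lower and none higher, beside 12% of all measured genes (7.26% higher and 4.78% lower). These background shares cover genes of every level, and the members are on the whole well covered. The median log2 ratio was -0.04 over 83 members and -0.00 over all measured genes. Of the members 51 lay below 0 (61.4%), beside 50.5% of all measured genes. The interquartile range ran from -0.14 to 0.03 for the members and from -0.20 to 0.23 for all genes. Medians were -0.00 for complex I, -0.16 for complex II, -0.09 for complex III, -0.07 for complex IV and -0.02 for complex V. The counting interval lay below equality for 27 members and above it for 10, beside 28.8% and 28.1% of all measured genes. Among 46 members with a named pseudogene it lay below for 20 and above for 3. Among 37 with none it lay below for 7 and above for 7 (a split chosen after seeing the data).

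NDUFA4, a small subunit of complex IV, stood at 99.6, 58.6, 125.4 and 114 CPM. The siSMPD1 library was thus the lowest of the 4, and it was 1.7-fold lower than its paired control (1.58 to 1.83) and 2.14-fold lower than control_GPR64 (1.9 to 2.41). COX7A2L, which helps join complexes III and IV into supercomplexes, stood at 118, 80.4, 120 and 130 CPM. It was again lowest in siSMPD1, at 1.46-fold below its control (1.37 to 1.56). The siSMPD1 library was the lowest of the 4 for 41 of 83 members, so that rank is not particular to these genes. The like share over all genes was not computed. ATP5J2, a membrane subunit of complex V, was 1.29-fold lower (1.17 to 1.42). In complex III the core subunit UQCRC2 was 1.25-fold lower (1.2 to 1.3) and the Rieske iron-sulfur subunit UQCRFS1 1.24-fold lower (1.15 to 1.33). In complex II the membrane anchor SDHD was 1.19-fold lower (1.11 to 1.27) and the iron-sulfur subunit SDHB 1.16-fold lower (1.1 to 1.22), while the flavoprotein SDHA and the anchor SDHC had log2 ratios of -0.10 and 0.01. NDUFS1, the largest core subunit of complex I, had the lowest ratio of that complex, at 1.21-fold lower (1.16 to 1.27). It overlaps exons of other genes, EEF1B2 among them, so some of its reads may belong to those.

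At the other end, NDUFA7, an accessory subunit of complex I, stood at 30.7, 46.0, 61.3 and 33.3 CPM, high in siSMPD1 and control_GPR64 and low in the other libraries. It shares exon sequence on its strand with a readthrough gene in GENCODE v29. Its log2 ratio of 0.58 in siSMPD1 was the highest of the members, but siSMPD1 was lower than control_GPR64, with a log2 ratio of -0.41. The accessory subunit NDUFB7 was 1.25-fold higher in siSMPD1 (1.15 to 1.35), and it too was lower against the other control, at -0.36. ATP5G2, one of 3 genes for the same mature c subunit of complex V, was 1.15-fold higher (1.1 to 1.21), and its partners ATP5G1 and ATP5G3 had log2 ratios of 0.03 and -0.02. CYC1, cytochrome c1 of complex III, was the highest of its complex at 1.09-fold (1.05 to 1.12), and it was lower against the other control, with a log2 ratio of -0.14. CYCS, the mobile carrier between complexes III and IV, was 1.15-fold lower (1.1 to 1.21).

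**Figure D2:**
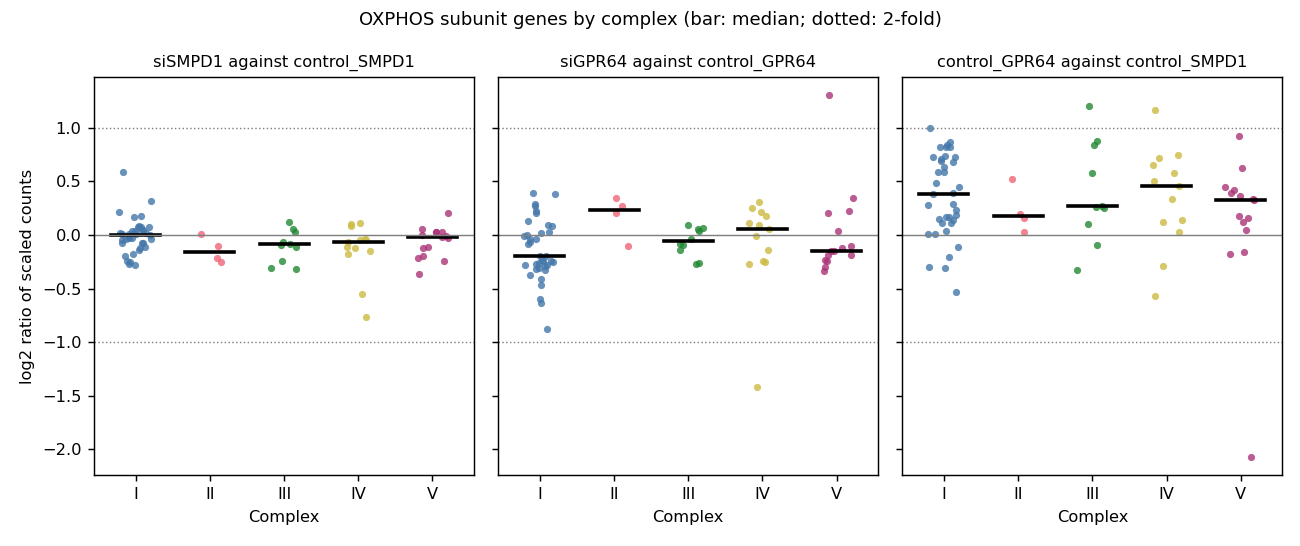
Log2 ratio of scaled counts for each measured subunit gene (1 point per gene), by complex, in the 3 comparisons, with the median of each complex as a bar and dotted lines at 2-fold. In the 2 knockdown comparisons the points lie mostly within 1.5-fold of 0, and between the controls the 5 medians lie between 0.18 and 0.45. The points past the dotted lines belong to ATP5E, NDUFA4L2 and UQCRHL, the first a member with few counts in the GPR64 pair, the second one with few counts throughout.

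The second comparison asked the same after GPR64 silencing. No member was shifted 2-fold between siGPR64 and control_GPR64, beside 11.7% of 12830 measured genes (6.56% higher and 5.18% lower). NDUFA4L2, with 2 against 7 counts, and ATP5E, with 5 against 2, had log2 ratios of -1.42 and 1.30 whose intervals included equality. At 1.5-fold NDUFA7, NDUFB2 and NDUFA12 were lower and none was higher, beside 24.5% of genes (11.3% lower and 13.2% higher). The median log2 ratio was -0.08 over 83 members and 0.01 over all genes, and the members' interquartile range ran from -0.25 to 0.09. Against this control the complexes did not share a direction. The median was -0.20 for complex I and -0.15 for complex V, near 0 for complexes III (-0.06) and IV (0.05), and 0.24 for complex II. Against control_SMPD1 all 5 medians lay above 0, at 0.24, 0.42, 0.30, 0.36 and 0.14 for complexes I to V. There the complexes thus shared a direction. In the paired comparison the summed counts of complex I had a log2 ratio of -0.13 (-0.17 to -0.09) and those of complex II one of 0.16 (0.06 to 0.27), so these 2 counting intervals did not overlap. Against control_SMPD1 these log2 ratios were 0.21 (0.17 to 0.24) and 0.35 (0.27 to 0.43), from the same siGPR64 library. Complex II stood below complex I in siSMPD1 against control_SMPD1, at -0.16 and -0.04. It also did so between the controls, at 0.19 and 0.34. Whether the difference between these complexes in siGPR64 exceeds the spread between cultures was not tested, since each group is 1 library.

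All 3 members past 1.5-fold are accessory subunits of complex I, NDUFB2 in the membrane arm and NDUFA7 and NDUFA12 in the matrix arm. NDUFA7 was 1.84-fold lower in siGPR64 than in control_GPR64 (1.41 to 2.41). NDUFB2 stood at 62.6, 63.2, 67.5 and 43.5 CPM, so siGPR64 was the lowest of the 4 libraries and 1.55-fold below its control (1.22 to 1.98). NDUFB2 overlaps exons of BRAF and ADCK2, so some of its reads may belong to them. NDUFA12 stood at 64.6, 68.0, 115 and 76.4 CPM, so control_GPR64 alone stood high, and siGPR64 was 1.51-fold below it (1.26 to 1.81). Against control_SMPD1 the log2 ratio in siGPR64 was 0.12 for NDUFA7, -0.53 for NDUFB2 and 0.24 for NDUFA12. NDUFS1 was 1.38-fold lower (1.23 to 1.56) and stood below both controls, at 177 CPM against 245 and 218. It overlaps exons of GCSHP3, EEF1B2 and AC007383.3, so the same limit holds for its reads.

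In complex II, SDHA stood at 136, 127, 157 and 199 CPM, and was 1.27-fold higher in siGPR64 than in its control (1.12 to 1.45). SDHD was 1.21-fold higher (1.02 to 1.43), while the intervals of SDHB and SDHC included equality. The median of complex II rests on 4 genes, and the single one of them with no named pseudogene, SDHB, had a log2 ratio of -0.11. Higher values also stood in complex I at NDUFA2 and NDUFA11, at 1.31-fold each (1.03 to 1.67 and 1.09 to 1.58), and in complex V at ATP5L, a membrane subunit, at 1.27-fold (1.13 to 1.43). In complex V, ATP5H of the peripheral stalk was 1.27-fold lower (1.07 to 1.51) and the catalytic alpha and beta subunits ATP5A1 and ATP5B were 1.18-fold (1.11 to 1.26) and 1.14-fold lower (1.09 to 1.19). Against control_SMPD1 ATP5A1 was higher, with a log2 ratio of 0.13.

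The promoters of the 3 complex I genes past 1.5-fold in siGPR64 are shown because they are the members past 1.5-fold in that pair whose counting intervals left out equality. They run from 250 bases before to 50 bases after the RefSeq start, in build GRCh38.p14. Capitals mark matches, on either strand, to the core motifs of NRF1 (its palindrome, and the same with any base at 1 middle position, which includes the palindrome), of ETS factors such as GABP (CCGGAAG) and of YY1 (AANATGGC), all known regulators of respiratory genes.
NDUFA7 promoter, chr19:8321326-8321625, minus strand: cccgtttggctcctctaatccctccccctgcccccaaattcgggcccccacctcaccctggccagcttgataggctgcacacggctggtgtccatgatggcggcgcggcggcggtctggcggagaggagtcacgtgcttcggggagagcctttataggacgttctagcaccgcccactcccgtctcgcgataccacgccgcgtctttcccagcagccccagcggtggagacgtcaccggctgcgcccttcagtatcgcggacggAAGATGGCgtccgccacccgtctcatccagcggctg
NDUFB2 promoter, chr7:140696458-140696757, plus strand: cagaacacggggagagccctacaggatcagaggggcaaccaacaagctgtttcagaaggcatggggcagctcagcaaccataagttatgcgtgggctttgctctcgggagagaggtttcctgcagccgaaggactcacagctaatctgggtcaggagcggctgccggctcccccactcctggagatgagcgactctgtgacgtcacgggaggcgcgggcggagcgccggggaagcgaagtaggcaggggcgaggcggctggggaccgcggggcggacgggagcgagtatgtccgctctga
NDUFA12 promoter, chr12:95003648-95003947, minus strand: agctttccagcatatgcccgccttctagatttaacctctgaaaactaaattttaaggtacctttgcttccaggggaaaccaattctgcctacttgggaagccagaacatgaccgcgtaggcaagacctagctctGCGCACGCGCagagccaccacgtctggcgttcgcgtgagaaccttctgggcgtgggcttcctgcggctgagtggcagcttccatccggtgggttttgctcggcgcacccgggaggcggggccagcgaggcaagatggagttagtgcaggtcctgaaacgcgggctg
NDUFA7 held a YY1 match just after the start, NDUFA12 an NRF1 match before it, and NDUFB2 no match to these letters. Of 90 members, 71 had a promoter in the reference table. The NRF1 palindrome stood in 5.63% of them, against 1.24% of all 35116 promoters and 2.38% of 10051 promoters of measured genes. Its looser form stood in 22.5%, against 5.78% and 12%. The ETS motif stood in 28.2%, against 10.3% and 19.7%, and the YY1 motif in 31%, against 6.58% and 10.5%. A match describes the letters in this window and says nothing of binding.

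The third comparison set the scrambled controls against each other, and here the subunit genes stood apart from equality. At 2-fold UQCRHL was higher and ATP5E lower in control_GPR64, the latter on 2 counts, beside 15.4% of 12798 measured genes (7.02% higher and 8.33% lower). At 1.5-fold 24 members were higher and 1, ATP5E, was lower, beside 31.1% of all genes (14.6% higher and 16.6% lower). The median log2 ratio was 0.30 over 83 members and -0.01 over all genes. Of the members 70 lay above 0 and 15.7% below it, beside 50.9% of all genes below 0. All 5 complexes had a median above 0: 0.38 for complex I, 0.18 for complex II, 0.27 for complex III, 0.45 for complex IV and 0.33 for complex V. Both libraries of the GPR64 pair lay above both of the SMPD1 pair for 57 of 83 members and below both for 8, and 24.4% and 26.8% of all measured genes did so. The pairs also differ in depth and in the share of reads aligned to several places, at 30.1%, 29.1%, 21.4% and 20.1%. These features and the source of the cultures cannot be told apart. The median was 0.35 over 46 members with a named pseudogene and 0.27 over 37 with none. Over those with none it was 0.42 for complex III and 0.028 for complex IV (an alternative chosen after seeing the data). The complex IV value is that of COX7A2L, which lay between COX8A (-0.29) and NDUFA4L2 (1.17, on 7 against 20 counts). No other measured member of complex IV remained. The complex III value includes UQCRHL, whose log2 ratio was 1.20 and whose own level is uncertain.

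**Figure D3:**
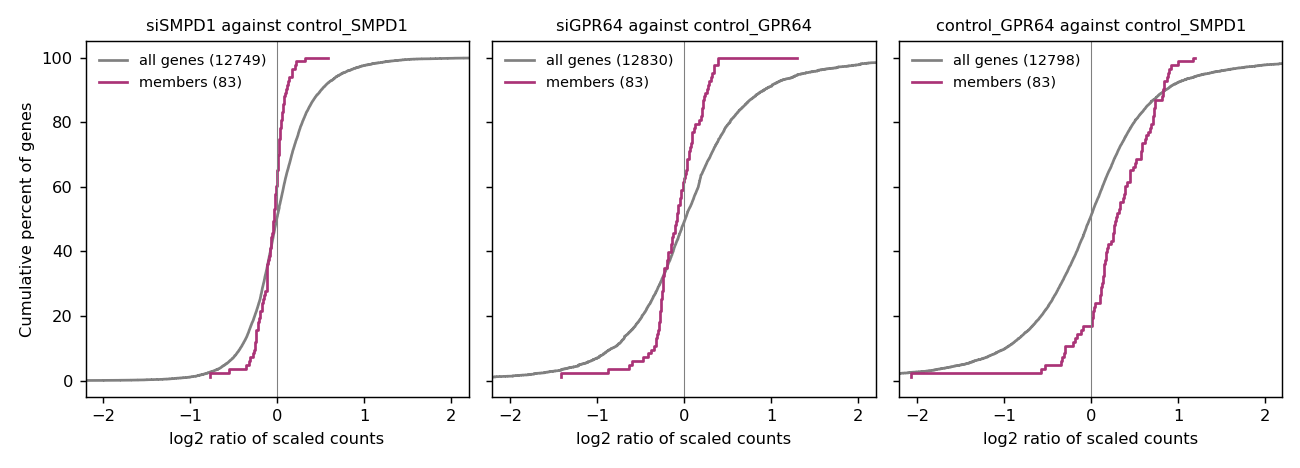
Cumulative percent of genes (y axis) by log2 ratio of scaled counts (x axis) in the 3 comparisons, for the 83 measured members and for all measured genes. The members' curve is steeper than that of all genes in the knockdown comparisons, and between the controls it is moved to the right, with a median of 0.30 against -0.01.

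Large differences between the controls lay in several complexes. In complex III, UQCRHL was 2.3-fold higher in control_GPR64 (2.08 to 2.53), its twin UQCRH 1.84-fold higher (1.67 to 2.03) and the core subunit UQCRC1 1.79-fold higher (1.64 to 1.94). The values of UQCRH and UQCRHL are not independent, given the shared windows of the sequences printed above. CYCS stood at 205, 178, 383 and 366 CPM, so it split by pair and not by knockdown. In complex V, ATP5F1 of the peripheral stalk was 1.89-fold higher (1.74 to 2.06), at 128, 131, 243 and 219 CPM. In complex I, NDUFA7 was just under 2-fold higher (1.68 to 2.37), and NDUFS6, NDUFA12 and NDUFS7 were 1.83-fold (1.62 to 2.06), 1.79-fold (1.58 to 2.02) and 1.77-fold higher (1.51 to 2.06). In complex IV, COX5B, which binds zinc, was 1.67-fold higher (1.5 to 1.87), COX7C 1.64-fold (1.51 to 1.78) and COX5A 1.57-fold (1.42 to 1.74).

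Members of the same complexes ran the other way. NDUFV1, the NADH-binding flavoprotein of complex I, stood at 214, 209, 148 and 181 CPM and was 1.45-fold lower in control_GPR64 than in control_SMPD1 (1.31 to 1.6). COX6C of complex IV was 1.48-fold lower (1.28 to 1.73), COX8A, also of complex IV, 1.23-fold lower (1.13 to 1.33) and UQCRB of complex III 1.26-fold lower (1.12 to 1.41). Subunits of 1 complex thus differed in opposite directions by more than counting error. Between the controls the counting intervals of 56 of 83 members left out the members' median, and those of 57.3% of all genes left out the median of all genes. The counts were 35 members in the SMPD1 pair, beside 56.9% of genes, and 29 in the shallower GPR64 pair, beside 42.5%.

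**Figure D4:**
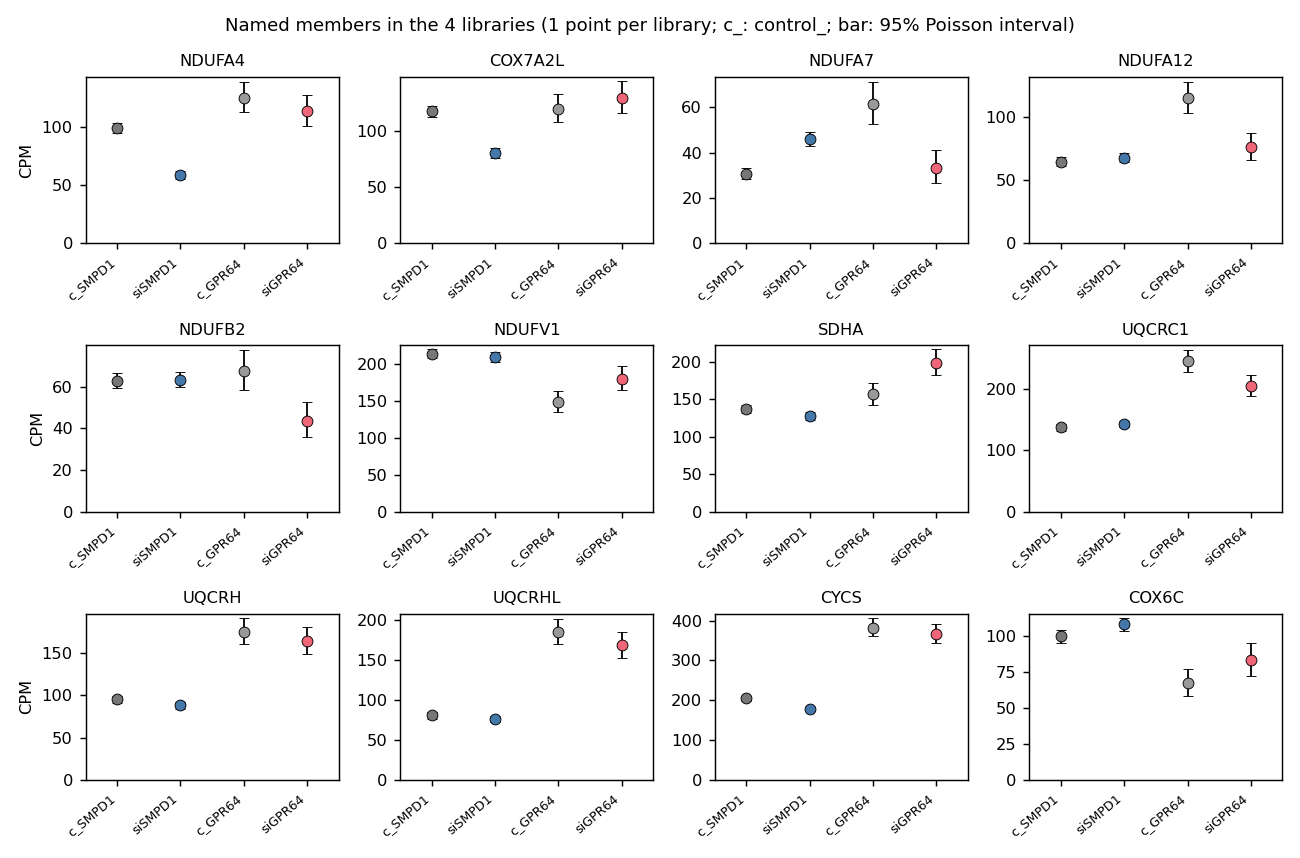
Level of 12 named members in CPM, 1 point per library, with exact 95% Poisson intervals. NDUFA4 and COX7A2L are lowest in siSMPD1 at 58.6 and 80.4 CPM, which is the lowest library for 41 of 83 members. NDUFB2 is lowest in siGPR64 at 43.5 CPM, and UQCRC1, UQCRH, UQCRHL and CYCS split by pair.

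Because the controls differ, the choice of control changed the size of the group's median in siSMPD1 and its direction in siGPR64. Against control_GPR64 the siSMPD1 library had a median log2 ratio of -0.41. There 1 member was higher (ATP5E) and 3 lower (NDUFA4, UQCRHL and CYCS) past 2-fold, beside 18.5% of 12887 genes (10.5% higher and 8.02% lower). ATP5E had 2 counts in control_GPR64, the levels of ATP5E and UQCRHL are uncertain as said above, and CYCS has 40 named pseudogenes. Against control_SMPD1 the siGPR64 library had a median of 0.27, with 1 member higher (UQCRHL) and none lower, beside 11.4% of genes (6.18% higher and 5.25% lower). These comparisons share libraries with those above and are not further evidence. In tests that took both controls as replicates of 1 group, each knockdown was still 1 library, with 1 residual degree of freedom. After adjustment, edgeR's quasi-likelihood test and DESeq2 called almost no gene of any kind in either knockdown, and no member. The lack of calls among members therefore says nothing particular about them.

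Genes that build or feed the complexes were read from lists set beside the members, against 2-fold shares of 3.6% of all genes in siSMPD1 and 11.7% in siGPR64. Of 14 complex I assembly factors none was 2-fold shifted in siSMPD1 and 1 was higher in siGPR64. This was TMEM126B, at 113 CPM against 53.4 in its control, 2.11-fold higher (1.74 to 2.59). Against control_SMPD1 none of the 14, TMEM126B included, was 2-fold shifted in siGPR64. Of 39 assembly factors for complexes II to V, C7orf44, now named COA1, was the single one shifted in a knockdown. It stood at 72.9, 35.0, 99.7 and 75.2 CPM, and was 2.08-fold lower in siSMPD1 (1.9 to 2.29). None of 18 citric acid cycle and pyruvate dehydrogenase genes passed 2-fold in either knockdown, with medians of -0.14 in siSMPD1 and -0.18 in siGPR64 (0.0039 against control_SMPD1). None of 19 genes of coenzyme Q synthesis and electron entry did either, with medians of -0.08 and -0.29. At 1.5-fold 7 of these 19 were lower and 1 higher in siGPR64, beside 11.3% and 13.2% of all genes, but against control_SMPD1 2 were lower and 1 higher, and the median was -0.05. Furthest from equality in siGPR64 were ETFDH, which passes electrons from fat oxidation to coenzyme Q, at 1.9-fold lower (1.49 to 2.46), and the coenzyme Q methyltransferase COQ5 at 1.82-fold lower (1.4 to 2.39).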

How the data were processed

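Ribosome-depleted total RNA libraries of A673 cells were read from both ends, per the labels' protocols. TopHat2, HTSeq, SAMtools, bcl2fastq and build hg19 are named in the submitters' processing notes. Not given in the sources used here: annotation, strand setting, read length. The authors deposited raw counts for each gene symbol, without normalization. Their 5 HTSeq summary lines (36.5% to 44.8% of entries) were left out of library sizes.

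Counts were scaled with TMM factors (edgeR 4.0.16, R 4.3.3). Log2 ratios used a prior of 0.5 count, and intervals are exact Clopper-Pearson intervals on a gene's split of counts between 2 libraries. Reads without molecular identifiers are not independent molecules, so intervals cover counting error only. A gene was measured at a mean of at least 1 CPM over the 2 libraries. With 1 library per group no test was the main result. DESeq2 1.42.0 and edgeR's quasi-likelihood test, with Benjamini-Hochberg adjustment over all measured genes, were alternatives.

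Members, lists and rules were chosen with earlier results of these data known. Named members are the 5 highest and 5 lowest ratios of each comparison, members past the rule, the ends of each complex, isoform pairs, complex II, CYC1 and CYCS, and not all are printed. ATP5A1, ATP5B, UQCRC1, NDUFS6, NDUFS7, COX7C, COX5A and COX5B, and in the closing section NRF1, TFAM and NDUFAF4, were chosen after their values were seen. In other lists, genes past the rule or the 2 furthest from 0 were eligible. Of the symbols, 71 members matched a RefSeq promoter. The GRCh38 annotation gave names, sequences and overlaps, not coordinates for the hg19 counts.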

Additional observations from a re-analysis of the deposited data

How the results depend on the processing

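No paired analysis was possible because each group is 1 library. Total gene counts or DESeq2 size factors in place of TMM, a prior of 2 counts, a minimum of 5 CPM or none, and leaving out the symbols that encode no subunit kept every complex median within the median counting interval of its genes. The same held for the count of shifted members, except that a 5 CPM minimum left 1 between the controls (UQCRHL). At 1.5-fold the counts were 1 in siSMPD1, 3 in siGPR64 and 25 between the controls. Without UQCRH, UQCRHL, CYCS and other members with near-identical or many copies, the count between the controls was 1. That member was ATP5E, with 2 counts in control_GPR64. It was kept in this setting although it too has a near-identical copy.

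The reference library mattered most. Against the other control, 4 members were shifted in siSMPD1 and 1 in siGPR64. The members' median was -0.41 in siSMPD1 and 0.27 in siGPR64. Medians for complexes I to V in siSMPD1 were then -0.41, -0.34, -0.46, -0.62 and -0.38. In siGPR64 they were 0.24, 0.42, 0.30, 0.36 and 0.14. The cause was not tested.

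Other alternatives were chosen after seeing the data. Without members that have a named pseudogene, the median of complex II in siGPR64 was -0.11 (SDHB alone). Between the controls the medians of complexes III and IV were then 0.42 and 0.028, the latter over COX8A, COX7A2L and NDUFA4L2. There 1 member was shifted. Without members that overlap another gene's exon, the complex III median between the controls was 0.55 and 1 member was shifted. In both cases the shifted member was UQCRHL, which stays in the complex III median, in the second case together with UQCRH. Fewer genes remain in these medians. Counting NDUFA4 in complex I moved no median outside its interval.

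Shares of gene counts without the 10 genes with most counts were, for complexes I to V, 0.334%, 0.0448%, 0.147%, 0.163% and 0.372% in control_SMPD1, then 0.333%, 0.0412%, 0.143%, 0.154% and 0.356% in siSMPD1, then 0.435%, 0.0527%, 0.199%, 0.205% and 0.446% in control_GPR64, then 0.395%, 0.0587%, 0.189%, 0.207% and 0.401% in siGPR64. Depth limits the GPR64 pair: members there rest on as few as 39 counts, beside ATP5E and NDUFA4L2 with 2 to 7.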

Other observations

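Among regulators of mitochondrial biogenesis, PPARGC1A, the coactivator PGC-1alpha, had 0 counts in all 4 libraries, and its relative PPARGC1B was measured. In the order control_SMPD1, siSMPD1, control_GPR64, siGPR64, PPARGC1B stood at 93.5, 117, 35.6 and 66.6 CPM, so it was lowest in control_GPR64. It was 2.62-fold lower there than in control_SMPD1 (2.15 to 3.23). NRF1, a transcription factor of respiratory genes, stood between 37.0 and 42.3 CPM in the 4 libraries, and TFAM, which packages mitochondrial DNA, at 109, 88.9, 111 and 128 CPM.

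SUCLG2, a subunit of succinyl-CoA synthetase, was 2.35-fold higher in control_GPR64 than in control_SMPD1 (1.71 to 3.2), at 19.9 against 8.43 CPM, and stood at 13.8 CPM in siSMPD1 and 10.6 in siGPR64. The 4 left-out complex I assembly factors NDUFAF1 to NDUFAF4 were within 2-fold in both knockdown comparisons, and NDUFAF4 stood at 41.4, 31.3, 68.2 and 54.1 CPM.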
